A study of Homo sapiens with 8 samples.

Results

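Folliculin (FLCN), its partners FNIP1 and FNIP2, the Rag GTPases RRAGA, RRAGC and RRAGD, the MiT-TFE transcription factors TFEB, TFE3 and MITF, and one of their target genes, GPNMB, were taken by gene symbol from the deposited table, and all 10 were found among its 61806 genes. Human keratinocytes of the immortalized line N/TERT-1, wild type and labelled as epidermal keratinocytes, were treated either with ethanol, the solvent (control, n = 4), or with O/A (n = 4). O/A is a mixture of oligomycin, an inhibitor of mitochondrial ATP synthase, and antimycin A, an inhibitor of cytochrome c reductase (complex III), and it depolarizes mitochondria. The study's legends give 10 µM oligomycin, 4 µM antimycin A and a treatment of 4 hours, which the sample labels do not state. All 8 libraries came from 1 cell line, and the study describes the 4 replicates of each condition as independent experiments.

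These genes form a nutrient-sensing branch at the lysosome. Rag GTPases work as heterodimers of RagA or RagB with RagC or RagD, which bring mTORC1 to the lysosomal membrane when amino acids are plentiful. The complex of FLCN with FNIP1 or FNIP2 is a GTPase-activating protein for RagC and RagD, and RagC or RagD bound to GDP recruits TFEB and TFE3 to the lysosome, where mTORC1 phosphorylates them and they are kept in the cytoplasm. When this branch is off, TFEB and TFE3 enter the nucleus and switch on genes of lysosomes and autophagy, and FLCN and RRAGD are themselves known targets. MITF is best known as the master regulator of melanocytes. mRNA-seq measures the transcripts of these genes and not the phosphorylation, location or activity of the proteins.

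Between 17210404 and 20999927 reads per library were counted on genes. After TMM scaling, the quasi-likelihood test of edgeR gave the difference between O/A and ethanol for the 14893 genes that reached 10 counts in at least 4 libraries, and its p-values were adjusted over these genes (Benjamini-Hochberg). All 10 genes met this minimum. A call needed an adjusted p-value of 0.05 or less together with a log2(FC) above 0.25 in size. Levels are given as FPKM, which sets a count against both gene length (exonic) and library total, so that genes of different length can be compared. The keratinocyte label was checked on 6 markers (KRT5, KRT14, TP63, KRT6A, LAMA3 and ITGA6), which all had at least 3155 counts in every library and summed to 17098 to 17663 TMM-scaled CPM (a count set against library size) in ethanol and 15674 to 16175 in O/A. KRT5, a keratin of basal keratinocytes, was called lower at a log2(FC) of -0.30, and its part in the results below was not tested. In such bulk libraries, fewer cells of a kind and less RNA per cell cannot be told apart.

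Of the 10 genes, 4 rose in O/A-treated cells: FLCN, FNIP1, RRAGC and TFE3. No gene was called lower by edgeR or by DESeq2, and 1, RRAGA, was lower at an unadjusted p under 0.05. RRAGA also passed the adjusted threshold (edgeR adjusted p = 0.000404) and missed only the fold threshold, with a log2(FC) of -0.17. The 4 calls are 40% of the 10 genes, while 34.7% of all genes tested were called, 15.8% higher and 18.9% lower. The median log2(FC) of the 10 genes was 0.26, against -0.0004 for all genes tested. An adjusted p-value of at most 0.05, whatever the fold change, was reached by 5 of the 10 and by 53.7% of all genes tested. For 5 of the 10, the O/A libraries lay entirely on one side of the ethanol libraries in TMM-scaled CPM, which was also so for 47.6% of all genes tested. Only the change of FLCN was larger than 1 on the log2 scale.

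FLCN, the tumor suppressor lost in Birt-Hogg-Dubé syndrome and the catalytic partner of its complex, showed the largest change. It lies on chromosome 17 of GRCh38 from 17212212 to 17237188 on the minus strand. In ethanol it had 2.70, 2.53, 2.77 and 2.75 FPKM in replicates 1 to 4. In O/A it had 4.96, 5.95, 6.26 and 6.28 FPKM. The conditions did not overlap, and the lowest O/A library, replicate 1, was still above every ethanol library. Its mean rose from 2.69 ± 0.109 FPKM to 5.86 ± 0.62 (± SD over 4 libraries, as in all values below). The counts behind these levels were 435 to 566 with ethanol and 858 to 1180 with O/A. Its log2(FC) was 1.17 (standard error 0.065, 95% interval 1.04 to 1.31, edgeR adjusted p = 1.1e-12), a 2.25-fold increase, and 1.8% of all genes tested had a larger log2(FC). Without O/A replicate 1 the log2(FC) was 1.25. Another annotated gene on the same strand shares 1161 of the exonic bases of FLCN (11.9%) and held at most 2 counts in any library, so reads from that stretch may not have been counted for either gene.

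FNIP1 and FNIP2 (folliculin-interacting proteins) are alternative partners of FLCN. FNIP1, on chromosome 5 from 131641714 to 131797017, had 7.21, 7.21, 7.37 and 7.27 FPKM in the ethanol libraries and 9.51, 8.80, 8.86 and 9.05 FPKM in O/A. Every O/A library lay above every ethanol library, and the log2(FC) was 0.36 (standard error 0.039, edgeR adjusted p = 2e-11). FNIP2, on chromosome 4 from 158769026 to 158908050, had 2.94, 2.92, 2.90 and 3.07 FPKM in the ethanol libraries and 2.70, 2.67, 2.97 and 2.84 FPKM in O/A. The FNIP2 libraries of both conditions overlapped. Its log2(FC) was -0.038, with a 95% interval of -0.14 to 0.066 that does not reach the threshold on either side (edgeR adjusted p = 0.563). The transcripts of the partners moved apart, since FNIP2 had 40.7% ± 1.18 of the FPKM of FNIP1 in ethanol and 30.9% ± 2.14 in O/A, with no overlap between conditions. The FPKM of FLCN per FPKM of FNIP1 and FNIP2 together went from 0.263 ± 0.00891 to 0.496 ± 0.0598.

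RRAGA and RRAGC had the highest levels of the Rag genes in these cells. RRAGC, on chromosome 1 from 38838198 to 38859772, had 6.94, 7.43, 7.06 and 6.98 FPKM in the ethanol libraries and 8.95, 8.84, 9.36 and 9.47 FPKM in O/A. No O/A library reached down to the ethanol range, and its log2(FC) was 0.41 (standard error 0.046, edgeR adjusted p = 7.34e-11), a 1.33-fold increase. An lncRNA on the same strand shares 1183 exonic bases with RRAGC (23.1%) and held at most 3 counts per library, so the level of RRAGC may be counted low in both conditions. RRAGA, a gene with a single exon on chromosome 9 from 19049427 to 19051025, was the most abundant of the 10 genes. It had 40.02, 41.67, 40.34 and 40.95 FPKM in the ethanol libraries and 33.37, 37.26, 33.57 and 36.13 FPKM in O/A. RRAGA was lower in every O/A library than in any ethanol library, but its log2(FC) of -0.17 (95% interval -0.25 to -0.088, edgeR adjusted p = 0.000404) lay within the threshold, so it was not called. Its annotated pseudogene, RRAGAP1, had 0 counts in all 8 libraries.

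RRAGD, the paralog of RRAGC and one of the best known MiT-TFE target genes, was the least abundant of the 10 genes. It lies on chromosome 6 from 89364616 to 89412273. Its counts were 20, 25, 21 and 19 in ethanol and 33, 29, 19 and 25 in O/A, which is 0.18 to 0.28 and 0.19 to 0.37 FPKM. The conditions overlapped, with the lowest O/A library at the level of the lowest ethanol library. The log2(FC) was 0.37 with a standard error of 0.24 and a 95% interval of -0.11 to 0.86 (edgeR adjusted p = 0.193), so a change as large as that of RRAGC was not detectable at this depth. It was 0.24 without O/A replicate 1 and at most 0.53 with another library left out. The summed level of RRAGC and RRAGD was 7.33 ± 0.262 FPKM with ethanol and 9.44 ± 0.266 FPKM with O/A, and RRAGC made up 96.9% ± 0.479 and 97.0% ± 0.828 of this sum.

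TFE3 was the most abundant MiT-TFE factor in N/TERT cells and the only one called. It lies on chromosome X from 49028726 to 49043410. TFE3 had 17.14, 16.69, 17.11 and 17.01 FPKM in the ethanol libraries and 23.49, 22.22, 22.46 and 22.77 FPKM in O/A. These ranges were far apart, and the log2(FC) of 0.47 (standard error 0.035, edgeR adjusted p = 1.85e-16) corresponds to a 1.38-fold increase. TFE3 held 91.3% ± 1.09 of the summed FPKM of TFEB, TFE3, MITF and TFEC in ethanol and 94.4% ± 0.523 in O/A, and this sum went from 18.6 ± 0.36 to 24.1 ± 0.629 FPKM. TFEC, the fourth member of the family, had at most 4 counts in any library and was not tested.

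TFEB, the factor most often studied in lysosomal biogenesis, was at the lower end of the levels measured. It lies on chromosome 6 from 41683978 to 41736259. Its counts were 52, 38, 73 and 67 in ethanol and 53, 42, 29 and 47 in O/A, or 0.46 ± 0.129 and 0.348 ± 0.0981 FPKM. The conditions overlapped, and the log2(FC) of -0.37 had a 95% interval of -0.76 to 0.032 (edgeR adjusted p = 0.116). Single libraries moved this value in both directions. TFEB was called lower without ethanol replicate 2 (log2(FC) -0.49, edgeR adjusted p = 0.0288) and without O/A replicate 1 (-0.50, edgeR adjusted p = 0.0427), whereas its log2(FC) was -0.19 without ethanol replicate 3 and also without O/A replicate 3 (edgeR adjusted p = 0.444 and 0.423). MITF, on chromosome 3 from 69739456 to 69968336, had 139, 153, 166 and 168 counts in ethanol and 128, 147, 130 and 139 in O/A. These ranges overlapped, and its log2(FC) was -0.15 with a 95% interval of -0.35 to 0.055 (edgeR adjusted p = 0.223). The value for MITF was -0.077 without ethanol replicate 3, and it was -0.10 when O/A replicate 3 was left out. MITF has several promoters that give different isoforms, and the counts per gene do not separate them.

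GPNMB encodes a transmembrane glycoprotein that rises in tumors with lost FLCN or activated TFE3. It lies on chromosome 7 from 23235967 to 23275108. GPNMB had 35, 45, 48 and 61 counts in ethanol and 59, 62, 47 and 35 in O/A, with the lowest value of both conditions at 35. Its log2(FC) was 0.16, and the 95% interval of -0.19 to 0.52 holds both no change and an increase larger than that of TFE3 (edgeR adjusted p = 0.462). With 1 library left out, its log2(FC) ranged from 0.054 (without ethanol replicate 1) to 0.29 (without O/A replicate 4), and it was 0.068 without O/A replicate 1, 0.076 without O/A replicate 2 and 0.25 without ethanol replicate 4. Both MITF and GPNMB are abundant in melanocytes. Of 7 melanocyte markers, MLANA, TYR and KIT were at 0 in all libraries, and the 7 summed to 1.25 to 2.3 TMM-scaled CPM in ethanol and 1.15 to 2.53 in O/A, most of it from PMEL. Of 8 pigment genes that MITF activates, PMEL alone had enough counts to be tested (log2(FC) 0.10, 95% interval -0.40 to 0.61). The 5 fibroblast markers summed to 21.4 to 26.3 and 22.1 to 24.2 TMM-scaled CPM, nearly all from COL1A1. The 5 macrophage and leukocyte markers summed to 1.67 to 2.96 and 2.53 to 3.45, with CD68 called higher at 15 to 33 counts per library.

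**Figure D1:**
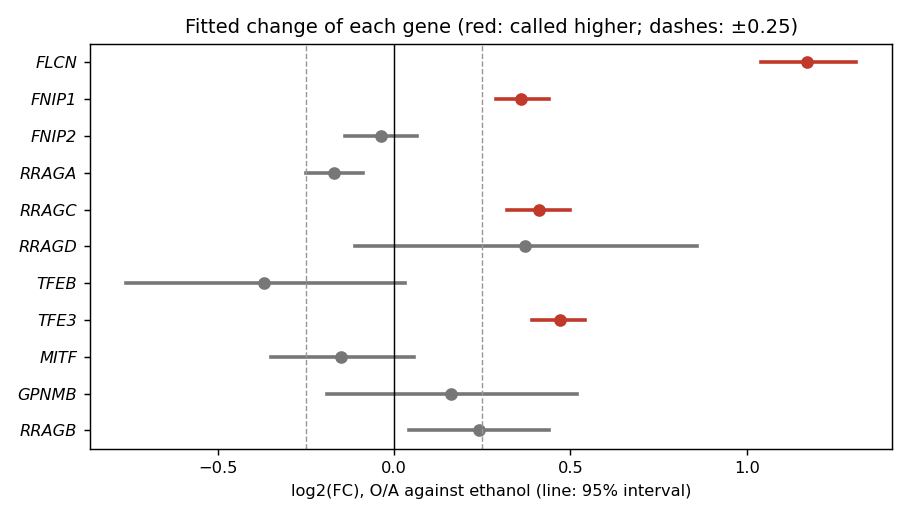
Fitted log2(FC) of the 10 genes and of RRAGB, O/A against ethanol, with 95% intervals (n = 4 libraries per condition) and dashed lines at the threshold of 0.25. The intervals of FLCN, FNIP1, RRAGC and TFE3 lie wholly above 0.25, whereas those of RRAGD, TFEB, MITF, GPNMB and FNIP2 include 0.

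Related genes were then compared within each library, where the scaling of the library cancels. The log2 ratio of FPKM was compared between conditions for 5 pairs by an exact permutation test, two-sided, of 4 libraries against 4, for which the smallest possible p is 0.0286. For 4 pairs the conditions did not overlap (exact permutation p = 0.0286 each, 0.0357 after Benjamini-Hochberg adjustment over the 5 pairs). The pairs are not independent, since TFE3 serves for both TFEB and MITF. Taken alone, FNIP2, TFEB, MITF and RRAGB overlapped between conditions, whereas FNIP1, TFE3 and RRAGA did not. Among single genes tested, 47.6% did not overlap, and the share among other pairs was not measured. FNIP2 fell against FNIP1 by 0.40 on the log2 scale. TFEB went from 2.70% ± 0.74 to 1.52% ± 0.403 of the FPKM of TFE3, and MITF from 6.73% ± 0.727 to 4.40% ± 0.339. For TFEB this separation was narrow, since ethanol replicate 2 and O/A replicate 1 both had a ratio of 1.92%. RRAGB, the paralog of RRAGA, went the other way, from 7.76% ± 1.28 of the FPKM of RRAGA in ethanol to 10.4% ± 0.918 in O/A. RRAGB alone had 2.53 to 3.62 FPKM in the ethanol libraries and 3.19 to 3.92 FPKM in O/A, ranges that overlapped. Its log2(FC) of 0.24 was just within the threshold (edgeR adjusted p = 0.037). The ratio of RRAGD to RRAGC differed by -0.062 on the log2 scale, with SDs of 0.23 and 0.43 (exact permutation p = 0.8), and the counts of RRAGD are too few for a narrower statement.

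The order of the levels was nearly the same in both conditions. In ethanol, RRAGA was followed by TFE3, then by FNIP1 and RRAGC, which overlapped, then by RRAGB and FNIP2, which also overlapped, and by FLCN, MITF, TFEB and GPNMB, and RRAGD. TFEB and GPNMB overlapped in ethanol, and TFEB, GPNMB and RRAGD formed a group of overlapping neighbours in O/A. The main move was that of FLCN, whose mean lay below those of FNIP2 and RRAGB in ethanol and above both in O/A. FLCN did not overlap FNIP2 in either condition, but in ethanol it overlapped RRAGB, which had less FPKM than FLCN in replicate 1. Across the 8 libraries, the 3 genes whose log2 CPM followed FLCN most closely were EZH2, OGT and PTPRE, with Pearson's r of 0.9966, 0.9966 and 0.9963 among 11395 genes with a mean of at least 1 FPKM. Such values mostly describe the step between conditions, which all 3 genes share, with log2(FC) of 0.39, 1.10 and 0.82. RRAGC and TFE3, which also rose, had r of 0.97 with FLCN. Without O/A replicate 1 the log2(FC) of EZH2, OGT and PTPRE went up to 0.42, 1.18 and 0.86, and that of FLCN to 1.25.

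MiT-TFE factors bind the E-box CACGTG, above all when T precedes or A follows it. The promoters of the genes that rose are shown to set this sequence beside their changes. RefSeq (GRCh38.p14) gave 300-base promoters, 250 bases before to 50 after a start site, for 8 of the 10 genes, RRAGA and RRAGD being the exceptions. Both strands were searched for CACGTG, for TCACGTG (which contains it) and for TGATGNAA, a core of the element bound by ATF4. CACGTG was found in 2 of the 8 genes, FNIP1 and RRAGC, and in 12.2% of the 10688 tested genes with a promoter in the table (9.0% of their 15453 promoters). TCACGTG was found in the same 2 genes, and in 7.0% of tested genes. TGATGNAA was found in none of the 8 and in 2.7% of tested genes. The matches began 175 and 94 bases before the start site of FNIP1 and 112 bases before that of RRAGC. RRAGB had 3 matches to CACGTG in its promoter, while FLCN and TFE3, which rose, had none in theirs. A match is a description of the letters and not of binding, and elements outside these windows were not searched. The part of each promoter that lies before the gene is printed 5′ to 3′ on the minus strand, the strand of all 4 genes, in lower case. Capitals mark a match to TCACGTG, which reads CACGTGA where it lies on the other strand. The stretches are chr5:131797018-131797267 for FNIP1, chr1:38859773-38860022 for RRAGC, chr17:17237189-17237418 for FLCN and chrX:49043411-49043607 for TFE3.
FNIP1: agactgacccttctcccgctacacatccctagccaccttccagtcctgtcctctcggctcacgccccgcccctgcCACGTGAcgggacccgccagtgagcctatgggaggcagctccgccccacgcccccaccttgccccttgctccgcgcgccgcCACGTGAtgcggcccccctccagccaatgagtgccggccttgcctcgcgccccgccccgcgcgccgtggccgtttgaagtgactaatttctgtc
RRAGC: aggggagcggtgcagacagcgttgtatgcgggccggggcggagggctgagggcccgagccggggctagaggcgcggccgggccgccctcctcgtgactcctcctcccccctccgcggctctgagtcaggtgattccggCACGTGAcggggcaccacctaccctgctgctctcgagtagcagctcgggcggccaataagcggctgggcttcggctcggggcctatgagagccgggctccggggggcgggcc
FLCN: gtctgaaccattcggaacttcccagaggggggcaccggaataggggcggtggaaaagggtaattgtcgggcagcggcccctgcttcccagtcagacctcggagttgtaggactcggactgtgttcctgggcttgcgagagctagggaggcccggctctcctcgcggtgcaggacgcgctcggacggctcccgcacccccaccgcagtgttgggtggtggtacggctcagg
TFE3: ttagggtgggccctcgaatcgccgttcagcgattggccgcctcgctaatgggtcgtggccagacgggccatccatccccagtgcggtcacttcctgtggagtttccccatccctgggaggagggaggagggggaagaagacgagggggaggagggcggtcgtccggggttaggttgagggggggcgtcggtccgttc

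The other genes of the branch were read from lists. Of 24 genes of lysosomal amino acid sensing, 23 were tested, and 3 were called higher (13%) and 4 lower (17.4%), with a median log2(FC) of -0.065, shares near those of all genes. The largest rise was that of SESN2, a sestrin that binds GATOR2 and reports leucine, from 593 to 701 counts in ethanol to 3249 to 3575 in O/A (log2(FC) 2.43, standard error 0.039, edgeR adjusted p = 9.39e-44). SESN3 rose as well, at 0.76, whereas SESN1 fell, at -0.46, so the sestrins went in different directions. KICS2, a subunit of KICSTOR, which anchors GATOR1 at the lysosome, went from 157 to 186 counts to 71 to 86 (log2(FC) -1.03), and SAMTOR, the sensor of S-adenosylmethionine, was also called lower (-0.38). The remaining calls were LAMTOR3 of Ragulator, the lysosomal anchor of the Rags (0.27), and CASTOR2 (-0.33). None of the 5 tested genes of GATOR2 was called by edgeR or DESeq2, and 3 of them had an unadjusted p under 0.05, with log2(FC) from -0.20 to 0.14. Some of these also passed the adjusted threshold (edgeR adjusted p down to 0.0003) and missed only the fold threshold. Of all genes tested, 53.7% passed the adjusted threshold whatever the fold change, so 3 of 5 is not a trait of GATOR2. CASTOR1, an arginine sensor, had at most 8 counts and was not tested.

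In the core of mTORC1 and its TSC-RHEB switch, 2 of 8 tested genes were called higher (25%) and 1 lower (12.5%), with a median log2(FC) of 0.039. With 15.8% of all genes called higher and 18.9% lower, these counts over 8 genes are near the background. RPTOR, which encodes Raptor, the subunit that binds substrates and the Rags, fell from 4.29 ± 0.293 to 2.76 ± 0.16 FPKM (log2(FC) -0.59, edgeR adjusted p = 1.3e-13). TSC1 (0.29) and TBC1D7 (0.27), subunits of the complex that inactivates RHEB, were called higher, and TBC1D7 was not called without O/A replicate 3 (0.23). DEPTOR, an inhibitor of mTOR, had at most 4 counts per library.

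Among 20 tested regulators that act on MiT-TFE factors by other routes, 1 was called higher (5%) and 2 lower (10%), with a median log2(FC) of -0.02, against 15.8% and 18.9% of all genes. GABARAPL1, an ATG8 protein of the subfamily that binds FLCN-FNIP, rose from 4.42 ± 0.335 to 6.60 ± 0.342 FPKM (log2(FC) 0.63, edgeR adjusted p = 2.5e-12). The 14-3-3 proteins hold phosphorylated TFEB and TFE3 in the cytoplasm, and of the 7 genes, YWHAH (-0.58) and SFN (-0.28), the keratinocyte form, fell. MCOLN1, the lysosomal calcium channel upstream of calcineurin, had a log2(FC) of 0.11 with a 95% interval of -0.036 to 0.25. PRKAA2 and TFEC had too few counts to be tested.

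CLEAR genes, which TFEB and TFE3 activate and most of which act in lysosomes and autophagy, were read from a list of 40. Of these, 39 were tested. In O/A, 8 were called higher (20.5%) and 2 lower (5.13%), with a median log2(FC) of 0.12, against 15.8% and 18.9% of all genes. The 3 largest rises were in autophagy genes, of which 7 were tested, 3 called higher and 1, VPS18, lower, with a median of 0.13. MAP1LC3B, the LC3B protein of autophagosome membranes, rose from 24.0 ± 0.375 to 53.5 ± 1.78 FPKM, and SQSTM1, the p62 cargo receptor, from 26.6 ± 0.507 to 58.2 ± 2.09 FPKM (log2(FC) 1.20 and 1.18). WIPI1, which acts in autophagosome formation, rose at 0.98 (edgeR adjusted p = 1.77e-21). Among 19 hydrolases, 3 were called higher and 1 lower, and their median log2(FC) was 0.088. NAGLU, the hydrolase called lower, had -0.31. Of 11 genes of the lysosomal membrane and proton pump, CLCN7 alone was called, and the 11 ranged from -0.13 to 0.28. At an edgeR unadjusted p under 0.05, whatever the fold change, 8 of the 11 were higher and 1 was lower. Over the 39 tested CLEAR genes, 24 were higher and 4 lower by this measure, of which 8 and 2 were called. Of all genes tested, 53.7% reached an edgeR adjusted p of at most 0.05 in either direction. Their share in each direction at an unadjusted p was not measured, so these counts cannot be set against a background. VPS18, the autophagy gene called lower and a subunit of the HOPS tethering complex, fell from 8.48 ± 0.29 to 4.56 ± 0.159 FPKM (log2(FC) -0.85). The list also held 3 genes outside these classes, of which 2 were tested. HMOX1 was the 1 called higher (log2(FC) 0.62, edgeR adjusted p = 2.72e-07), and it is among the 8 calls above. PPARGC1A, also of this group and a target in other tissues, had at most 1 count in any library and was not tested.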

How the data were processed

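mRNA was measured in 8 N/TERT-1 libraries, grouped by the sample titles. The authors used HISAT2 (v2.0.1) for alignment to GRCh38.p13 and HTSeq (v0.6.1) for counts per Ensembl gene, per the labels and methods. The deposited counts are raw, and the Ensembl release and strand setting are not given in the sources used here. The deposited FPKM values were within 0.005 of count, exonic size and library total combined. The authors' own comparison table (fold changes, their errors and p-values) was not used.

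The members and gene lists were chosen with earlier results of these data known, and 1 gene of the amino acid sensing list is not reported here. Counts were fitted with edgeR 4.0.16 (TMM, robust quasi-likelihood test, R 4.3.3) over 14893 genes, and the step was tested on simulated data. Standard errors and 95% intervals follow from the F statistic. All 10 members are named, and from each list up to 3 called genes per direction with the largest changes, those untested where they number at most 3, and RRAGB, TFEC, MCOLN1, SQSTM1 and PPARGC1A. CASTOR2, CLCN7, HMOX1 and PMEL, and the marker COL1A1, were named after their values were seen. Alternatives were DESeq2 1.42.0, limma 3.58.1 on log2(FPKM + 0.1), log2(FPKM + 1) and quantile-normalized CPM, median-ratio scaling, other filters and fold thresholds, a replicate block and each library left out. Counting error is a limit for genes under about 100 counts per library, such as RRAGD. Other variation between libraries was not separated from it. Annotated overlaps come from GENCODE v44, whose start and end matched for all 10 genes.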

Additional observations from a re-analysis of the deposited data

Results flagged for a closer look

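Each condition of each named gene was searched for a single library that stands away from its 3 neighbours. This was so for 2 of 68 such sets, where chance gives about 1 in 20 (3.4). RRAGC had 37.5 TMM-scaled CPM in ethanol replicate 2 against 35.2 to 35.4 in the other ethanol libraries, which is still below the 45.9 of the lowest O/A library. For TBC1D7 it was O/A replicate 3, at 24.3 TMM-scaled CPM, where the rest of the O/A libraries ranged from 21.5 to 21.8.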

How the results depend on the processing

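With the thresholds kept, FLCN, FNIP1, RRAGC and TFE3 were called in every alternative that tested them, with log2(FC) from 0.89 to 1.25 for FLCN, 0.28 to 0.39 for FNIP1, 0.33 to 0.44 for RRAGC and 0.40 to 0.49 for TFE3, and the lowest value of each was on log2(FPKM + 1). With a mean FPKM of at least 5, FLCN was not tested and the other 3 were called. No member changed direction in any alternative. TFEB gained a call with 1 library left out (-0.49 and -0.50), and RRAGA (-0.17) with no fold threshold. FLCN was the 1 member past an absolute log2(FC) of 1, where FNIP1, RRAGC and TFE3 were not called, and 4 to 5 members were called when libraries were left out. Over all genes, 2182 were called with a mean FPKM of at least 5, where fewer genes are tested, 797 at an absolute log2(FC) above 1, 7999 with no fold threshold, and 4945 to 5071 when libraries were left out. The median log2(FC) of all genes stayed within 0.1 of 0 under every scaling.

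The ratio of RRAGD to RRAGC turned to 0.022 when ethanol replicate 2 was left out and to 0.13 when O/A replicate 3 was, within a range of -0.21 to 0.13, and the other 4 ratios kept their direction in all 8 such comparisons, where 3 against 4 libraries cannot give a p below 0.0571. RRAGB passed the threshold in 5 alternatives, with values up to 0.34 under quantile normalization. Regulators called higher were 2 under DESeq2 and median-ratio scaling and 1 to 2 when libraries were left out, and genes of mTORC1 and TSC-RHEB called higher were 1 to 2. The macrophage and leukocyte markers called higher were 0 under DESeq2 and without a filter and 0 to 1 when libraries were left out, with CD68 as the gene concerned. TSC1 (0.24 and 0.17) and TBC1D7 (0.22 and 0.16) lost their calls on log2(FPKM + 0.1) and log2(FPKM + 1), as did LAMTOR3 (0.23 and 0.21, and 0.24 under quantile normalization), and NAGLU (-0.21) and KRT5 (-0.20) under quantile normalization. For all of these, the cause was not tested.

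Replicate numbers gave no clear pairing of libraries: correlations of same-numbered libraries ran from -0.0216 to 0.0658. Ethanol replicates 1 and 4 matched their own number best, and replicates 2 and 3 did not. Such low values over all genes tested cannot exclude pairing by experiment. With the replicate block 5160 genes were called, 5117 of them shared, and 4 members. Depth is a limit for RRAGD, TFEB and GPNMB, each with at most 73 counts per library.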

Other observations

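The nearest tested genes on either side of FLCN were PLD6 (log2(FC) -0.23, standard error 0.19) and COPS3 (0.03, standard error 0.037), and neither was called. Beside FNIP1 lie RAPGEF6, at 0.038 (standard error 0.083), and CSF2, at 1.38 (standard error 0.14) and 276772 bases away. RRAGC-DT, an lncRNA gene 140 bases from RRAGC, had 0.43 with a standard error of 0.29 and was not called, and POU3F1, 791405 bases away on the other side, fell at -0.83 (standard error 0.3). GRIPAP1, 26462 bases from TFE3, rose at 0.34 (standard error 0.048), and CCDC120, on its other side, had -0.14. These genes were picked by position after the values of the 4 members were seen.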
